A study of Mus musculus with 18 samples.

Results

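Peritoneal macrophages that lacked the nuclear receptor PXR in the myeloid lineage were compared with macrophages carrying floxed PXR alleles, with the PXR ligand PCN present in both. The comparison used 9 of the 18 libraries of the study, chosen by their labels. The 3 FF_PCN libraries were labelled PXRF/FLDLR-/-, a floxed genotype with no deletion, and the 6 dMye_PCN libraries were labelled PXRΔMyeLDLR-/-. Every library, in both groups, therefore came from C57BL/6 mice that also lacked the LDL receptor. The mice were 6 weeks old, and their peritoneal cells were harvested 3 days after an injection of 3% thioglycollate (1 mL), which recruits leukocytes into the cavity. Harvested cells were plated, left to attach for 4 h and then cultured with 20 µM PCN (pregnenolone 16alpha-carbonitrile) for 12 h. The other 9 libraries, 3 FF_DMSO and 6 dMye_DMSO, received the solvent and are used only to set the same genotype difference beside the one measured with PCN. The labels name neither the Cre line behind the deletion nor the number of animals. It is not stated if each library stands for its own animal or culture, so the p-values rest only on library-to-library spread, and that spread may be technical.

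PXR, encoded by Nr1i2, is a ligand-activated receptor that pairs with the retinoid X receptor on DNA. It is best known for inducing cytochrome P450 enzymes, conjugating enzymes and transporters in liver and intestine, and PCN is its standard rodent agonist. Macrophages in mice without the LDL receptor are studied for how they take up lipoprotein, store cholesterol ester and pass cholesterol out through the transporters ABCA1 and ABCG1, which are targets of the sterol receptor LXR.

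The targeted gene could not check the labels, because Nr1i2 had 1 count in all 3 FF_PCN libraries together and 3 counts in all 6 dMye_PCN libraries. Genotype and sex went together. The Y-linked genes Ddx3y (62.7, 56.9 and 53.9 CPM), Eif2s3y, Kdm5d and Uty were read in every FF_PCN library, while Ddx3y did not exceed 0.475 CPM in any dMye_PCN library. CPM is a gene's count divided by the library total and scaled to a common library size. Sex and PXR genotype cannot be told apart in any value that follows, and only autosomal genes are counted. Library totals ran from 24213246 to 25730712 counts in FF_PCN and from 22438223 to 30228017 in dMye_PCN, so that 3 counts, the smallest level treated as measurable, correspond to 0.0992 to 0.134 CPM. Mitochondrially encoded transcripts made up 1.59% ± 0.13 (SD, n = 3) of counts in FF_PCN and 1.72% ± 0.125 (SD, n = 6) in dMye_PCN, a difference that was not significant (exact permutation test, two-sided, p = 0.17, with 0.024 the smallest p this design allows). Along the leading principal component (49.1% of the variance) the genotypes separated, with FF_PCN libraries between -49.1 and -46.9 and dMye_PCN libraries between 22.3 and 25.6.

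Genotype differences under PCN were widespread and, where large, lay almost entirely on the higher side in the deficient libraries. Of 12916 autosomal genes tested, 3567 were called (edgeR's quasi-likelihood test, Benjamini-Hochberg adjusted p under 0.05), which is 27.6% of those tested. In dMye_PCN 2074 were higher (16.1%) and 1493 were lower (11.6%), and these shares are the background for every gene list below. Among genes called with at least a 2-fold difference, 1041 were higher and 60 were lower, while the median over all autosomal genes was a log2 difference of 0.00. Libraries of the genotypes did not overlap for 3434 genes (26.6%), of which 2795 were called. Upper-quartile scaling in place of TMM put the higher share of calls at 74.3%, against 58.1% here, with a shift of the median of all genes of 0.055 on the log2 scale.

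**Figure D1:**
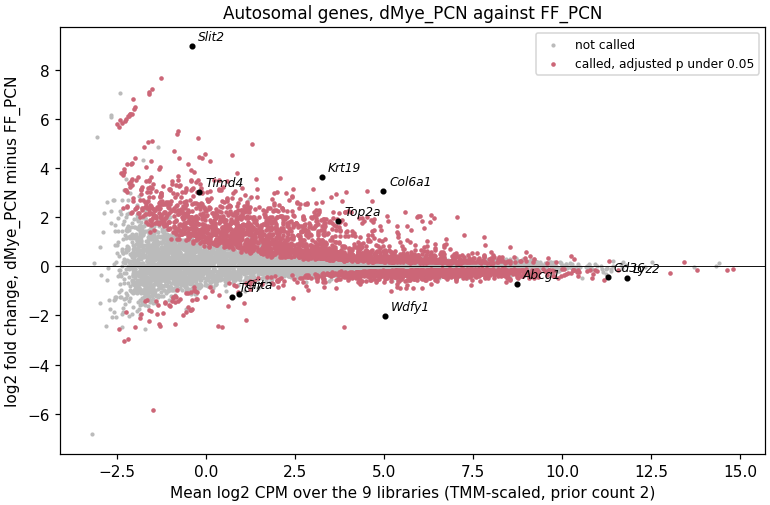
Log2 difference between dMye_PCN and FF_PCN (vertical axis) against the mean log2 CPM over the 9 libraries (horizontal axis) for each autosomal gene tested, with called genes in red and named genes in black. The 2-fold and larger differences are mostly above the zero line, with 1041 genes higher and 60 lower, and the plotted height of Slit2 is a fitted value that depends on the prior count.

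The genes with the largest differences upward were close to 0 in the floxed libraries. Slit2, a secreted guidance ligand, had 0 counts in all 3 FF_PCN libraries and ran from 1.49 to 3.02 CPM in dMye_PCN (median 2.67), at least 19.4-fold higher when set against a floor of 3 counts per FF_PCN library (0.124 CPM). Thbs2, a matricellular thrombospondin, stood at 0.0389, 0.436 and 0.206 CPM in FF_PCN and between 6.66 and 8.83 CPM in dMye_PCN (median 7.36). Thbs2 was higher by 4.98 ± 0.31 (SE) on the log2 scale (adjusted p = 3.2e-11). In FF_PCN library 1 it lay below 3 counts (0.117 CPM), so the size rests on few reads. The rule of size that named these genes admitted only genes without overlap between the genotypes, so their lack of overlap is no further result. Lum, the collagen-binding proteoglycan lumican, rose from 0.194, 0.198 and 0.124 CPM to between 3.88 and 5.35 CPM (median 4.06), a log2 difference of 4.54 ± 0.35 (adjusted p = 1.2e-09). The same rule of size named Arhgef28, Igsf9, Greb1, Cemip, Sema3d, Dmpk, P2rx1, Aqp1, Spon2, Mrgprf, Crispld2 and Col8a2, with mean levels of 1.21 to 2.71 CPM in dMye_PCN and no more than 0.107 CPM in FF_PCN. Arhgef28 and Igsf9 had 2 counts and Cemip 3 counts over all FF_PCN libraries, so their fold differences are not given, and the fitted log2 difference of Sema3d moved from 4.57 to 9.13 without FF_PCN library 1. Limma-voom did not call Arhgef28 (adjusted p = 0.12).

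Downward, Wdfy1 stood apart by its level. This gene, which encodes a FYVE-domain protein of endosomes linked to Toll-like receptor signalling, lies at chr1:79702262-79776143 on the minus strand of GRCm38. It stood at 78.8, 79.8 and 83.8 CPM in FF_PCN and between 17.4 and 22.9 CPM in dMye_PCN (median 21.5). That is a log2 difference of -2.01 ± 0.09 (adjusted p = 1e-13), and under DMSO it was -1.97. The other 14 of the 15 largest falls were at low levels. They included the T cell transcription factor gene Tcf7 (2.22, 2.34 and 3.84 CPM in FF_PCN, 0.879 to 1.55 CPM in dMye_PCN with a median of 1.15, log2 difference -1.25, adjusted p = 0.0017), the lymphocyte genes Lat, Gimap1 and Fcmr, and the MHC class II genes Ciita and H2-Eb2. Fam169b, Gpr162, Slco4a1, Fam71f2, Myo18b, Wnk2 and Hspa12b were also among them, with log2 differences from -1.97 for Gpr162 to -1.04 for Hspa12b. Calls of Fam71f2, Wnk2, Gimap1, Hspa12b and Fcmr were lost without 1 library. For Fam71f2 this was any FF_PCN library or dMye_PCN library 2 (adjusted p up to 0.088), and for Wnk2 it was FF_PCN library 1 or 2 (up to 0.069). For Gimap1 it was FF_PCN library 1 or 3 (up to 0.12), for Fcmr FF_PCN library 1 (0.12), and for Hspa12b FF_PCN library 1 or 2 or dMye_PCN library 4, 5 or 6 (up to 0.17).

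**Figure D2:**
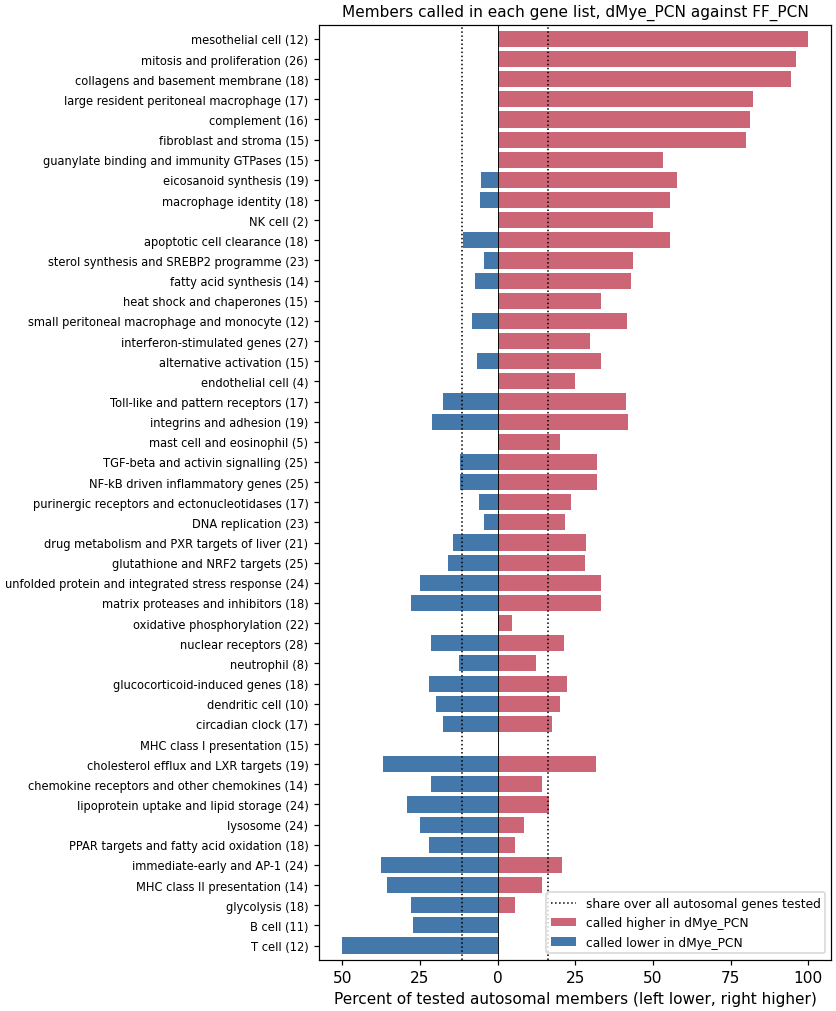
Percent of the tested autosomal members of each gene list (number tested in brackets) that were called higher (red, to the right) or lower (blue, to the left) in dMye_PCN, with dotted lines at the shares over all autosomal genes, 16.1% and 11.6%. Mesothelial markers (12 of 12), mitosis genes (25 of 26) and collagen and basement membrane genes (17 of 18) stand at the top, and T cell markers (6 of 12 lower) at the bottom.

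Both groups read as macrophages. Summed over 18 macrophage identity genes the level was 28781 to 30160 CPM in FF_PCN and 29179 to 31520 CPM in dMye_PCN, and the ranges overlapped. Of those 18 genes 10 were higher and 1 was lower, with a median log2 difference of 0.20. The pan-macrophage surface marker Adgre1 stood at 105, 101 and 104 CPM in FF_PCN and at 118 to 134 CPM in dMye_PCN (log2 difference 0.21, adjusted p = 0.003, a gene taken after its values were seen). Mertk, a receptor for apoptotic cells, rose by 0.48 on the log2 scale and Itgam, the integrin subunit CD11b, by 0.38. The only member that fell was the lysozyme gene Lyz2, at 4512, 4033 and 4631 CPM in FF_PCN and 2917 to 3755 CPM in dMye_PCN (median 3258, log2 difference -0.47 ± 0.11, adjusted p = 0.0034). Lyz2 shares near-identical sequence with Lyz1, so its estimated counts are uncertain.

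Most marker genes of resident peritoneal macrophages were higher in the deficient libraries. These cells, which depend on the transcription factor GATA6, live in the cavity before any irritant is given. Of 17 tested members 14 rose and 0 fell, with a median log2 difference of 1.15. Gata6 itself stood at 3.38, 4.8 and 5.62 CPM in FF_PCN and 11.6 to 14.5 CPM in dMye_PCN (median 13.5), a log2 difference of 1.49 ± 0.15 (adjusted p = 6.7e-08). Timd4, the phosphatidylserine receptor TIM-4, stood at 0.155, 0.317 and 0.0826 CPM against 1.28 to 1.96 CPM (median 1.54, log2 difference 3.01 ± 0.36, adjusted p = 1.4e-06). In FF_PCN library 3 Timd4 lay below 3 counts (0.124 CPM), so the size of its difference rests on few reads. Neither Gata6 nor Timd4 overlapped between the genotypes, nor did Prg4 (log2 difference 1.15), which encodes the lubricant proteoglycan 4, or the thrombospondin gene Thbs1 (1.55). Summed, the list came to 2456 to 2531 CPM in FF_PCN and 2889 to 3129 CPM in dMye_PCN, a smaller difference than the median of its members, since the abundant members Laptm5 (-0.04) and Cd9 (0.02), taken after their values were seen, were not called. Mesothelial and fibroblast markers were higher in the same libraries (together 235 to 262 CPM against 1041 to 1227 CPM), and their part in this result was not tested. In the DMSO libraries 12 of the 17 were higher and 1 was lower, with a median of 1.00. In bulk RNA, fewer cells of a type and less RNA per cell cannot be told apart.

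The list for small peritoneal macrophages and monocytes gave 5 of 12 higher and 1 lower (median 0.35). The higher members included Chil3, a chitinase-like secreted lectin, at 147, 144 and 158 CPM against 261 to 323 CPM (median 280, log2 difference 0.87, adjusted p = 2.3e-08), Vcan (0.87), Folr2 (0.67) and Retnla (1.70). Several of these also stand in the list of alternative activation genes, of which 5 of 15 rose and 1 fell (median 0.39), among them the mannose receptor gene Mrc1 by 0.42. Dendritic cell markers gave 2 higher and 2 lower of 10. Dpp4, a surface peptidase that mesothelial cells and fibroblasts also make, was higher by 2.35 and Irf8 was lower by 0.25. The call of Ccr7 (-0.71, adjusted p = 0.045) was lost without any of 6 of the 9 libraries, with an adjusted p of up to 0.18.

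Markers of mesothelial cells, which line the peritoneum, were higher without exception. All 12 mesothelial markers were tested and all 12 were higher, with a median log2 difference of 2.55. Summed, they came to 24.6 to 28.1 CPM in FF_PCN and 148 to 178 CPM in dMye_PCN. Msln, which encodes mesothelin, stood at 3.85, 3.37 and 4.91 CPM against 22.6 to 28.9 CPM (median 26.6, log2 difference 2.65 ± 0.12, adjusted p = 1.3e-13). Krt19, a keratin of simple epithelia, stood at 1.9, 1.67 and 1.53 CPM against 19.8 to 24.2 CPM (median 21.6, log2 difference 3.63 ± 0.14, adjusted p = 1.1e-14), and the mesothelial transcription factor gene Wt1 was higher by 2.55. Every dMye_PCN library was above every FF_PCN library for these genes.

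Fibroblast markers followed the same order. Of 15 tested, 12 were higher and 0 were lower (median 1.95), and the summed level was 210 to 235 CPM against 893 to 1049 CPM. The smallest unadjusted p of any autosomal gene belonged to Col6a1, a chain of the microfibrillar collagen VI (chr10:76708792-76726168, minus strand, GRCm38). It stood at 8.39, 7.14 and 6.9 CPM in FF_PCN and 59.0 to 70.6 CPM in dMye_PCN (median 63.3), a log2 difference of 3.05 ± 0.10 (adjusted p = 1.2e-15). The genes whose log2 CPM followed Col6a1 most closely over the 9 libraries were Krt19 (Pearson r = 0.9995), Gja1 (0.9979), Aldh1a2 (0.9976), Gas1 (0.997) and Ptgis (0.9968). These values are a description, since the libraries share the genotype difference. Sparc, a matricellular glycoprotein, stood at 29.5, 29.5 and 31.2 CPM against 120 to 144 CPM (median 130, log2 difference 2.07 ± 0.07, adjusted p = 1.2e-15).

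**Figure D3:**
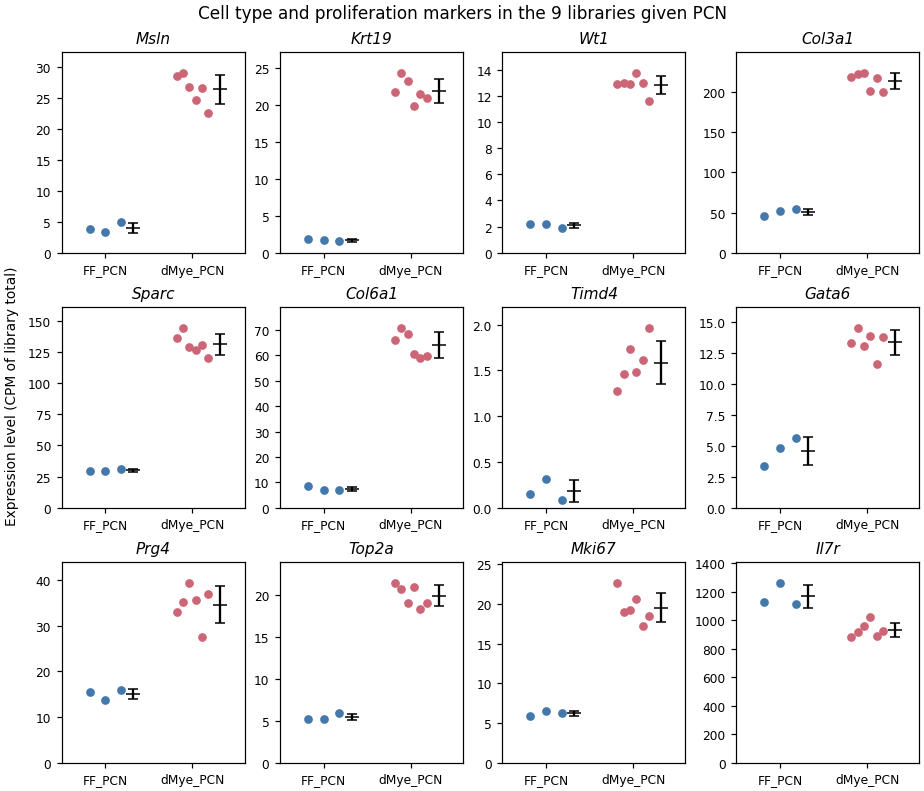
Expression level in CPM of the library total (vertical axes, each from 0) of 12 genes in the 3 FF_PCN libraries (blue) and 6 dMye_PCN libraries (red), with black bars for mean ± SD. The mesothelial, fibroblast, resident macrophage and mitosis genes are higher in every dMye_PCN library, and Il7r is lower in every one.

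Some lymphocyte markers were lower. Of 12 T cell markers 6 fell and 0 rose (median log2 difference -0.80). Of 11 B cell markers 3 fell and 0 rose (median -0.73), and the other 8 were not called. Summed, the T cell list came to 1136 to 1277 CPM in FF_PCN and 892 to 1033 CPM in dMye_PCN. Most of that was Il7r, the interleukin-7 receptor, so the sum does not measure T cells. Il7r stood at 1129, 1260 and 1117 CPM against 881 to 1021 CPM (log2 difference -0.38 ± 0.05, adjusted p = 1.5e-05). The defining markers were scarce. Cd4 stood at 0.466, 0.674 and 0.619 CPM against 0.132 to 0.518 CPM, with overlap (log2 difference -1.42, adjusted p = 0.017, and 0.08 without FF_PCN library 2). Cd79a, part of the B cell receptor, went from 4.24, 2.58 and 2.73 CPM to 1.48 to 2.67 CPM (-0.73), and its log2 difference was -0.48 (adjusted p = 0.16) without FF_PCN library 1. Without that library Pax5, the B cell transcription factor gene (-1.43), was not called either (adjusted p = 0.13). The third called B cell marker, Fcmr, lost its call too (adjusted p = 0.12). All 3 B cell calls thus depended on FF_PCN library 1.

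Few markers of other cell types were tested. The share called was 25% for neutrophil and endothelial markers, 20% for mast cell and eosinophil markers and 50% for NK cell markers. Over all autosomal genes it was 27.6%. Neutrophil markers summed to 129 to 141 CPM against 117 to 136 CPM, Ly6g was at 0 in all 9 libraries, and of 8 tested Lcn2 was higher and Mmp8 was lower. The Lcn2 call (log2 difference 0.46) was lost without FF_PCN library 1 or 3 (adjusted p up to 0.057), and the difference was 0.69 without FF_PCN library 2. NK cell markers summed to 0.912 to 1.73 CPM against 1.5 to 2.12 CPM with Gzmb at 0 throughout, and 1 of the 2 tested members, Klrb1c, was higher. Of 5 mast cell and eosinophil markers 1 rose, Cpa3 (0.81), and its call was lost without any of the FF_PCN libraries (adjusted p up to 0.087). Endothelial markers summed to 167 to 194 CPM against 136 to 195 CPM, Cldn5 was at 0, and 1 of 4 tested was called, Kdr (0.35), which was not called without FF_PCN library 1 (adjusted p = 0.057).

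Genes of mitosis rose almost as a block. Of 26 tested members of the mitosis and proliferation list 25 were higher, 0 were lower, and the median log2 difference was 1.47. Top2a, the topoisomerase that separates sister chromatids, stood at 5.17, 5.27 and 5.91 CPM in FF_PCN and 18.3 to 21.4 CPM in dMye_PCN (median 19.9), a log2 difference of 1.82 ± 0.12 (adjusted p = 6.5e-11). Mki67, the proliferation antigen Ki-67, stood at 5.91, 6.5 and 6.28 CPM against 17.2 to 22.6 CPM (median 19.2, log2 difference 1.6 ± 0.12, adjusted p = 1.1e-09). The anaphase ubiquitin-conjugating enzyme gene Ube2c was higher by 2.30 and the spindle midzone gene Prc1 by 1.66. No dMye_PCN library overlapped the FF_PCN range for these 4 genes. Genes of DNA replication behaved differently: of 23 tested, 5 were higher and 1 was lower (median 0.15). The helicase subunit genes Mcm5 (0.60) and Mcm4 (0.34) rose and the licensing factor gene Cdt1 fell by 0.37, while the call of Cdc45 (0.44) was lost without FF_PCN library 1 (adjusted p = 0.12). The libraries with more mitosis transcripts were the ones in which mesothelial and fibroblast markers together summed to 1041 to 1227 CPM, against 235 to 262 CPM in FF_PCN, and the part of those cells in the mitosis result was not tested.

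The promoters of the 4 named mitosis genes are shown because these genes moved together. Each window runs from 250 bases before to 50 bases after the annotated start (RefSeq, GRCm38.p6), and is written 5′ to 3′ in the direction of transcription. Capitals mark CCAAT, the box bound by the factor NF-Y, and TTTGAA, the core of the cell cycle homology region, on either strand. They read ATTGG and TTCAAA where the match lies on the opposite strand, and in Ube2c a CCAAT and an ATTGG match overlap within CCAATTGG. Top2a lies at chr11:99024140-99024439 (minus strand), Ube2c at chr2:164769679-164769978 (plus), Mki67 at chr7:135716330-135716629 (minus) and Prc1 at chr7:80294201-80294500 (plus).
Top2a: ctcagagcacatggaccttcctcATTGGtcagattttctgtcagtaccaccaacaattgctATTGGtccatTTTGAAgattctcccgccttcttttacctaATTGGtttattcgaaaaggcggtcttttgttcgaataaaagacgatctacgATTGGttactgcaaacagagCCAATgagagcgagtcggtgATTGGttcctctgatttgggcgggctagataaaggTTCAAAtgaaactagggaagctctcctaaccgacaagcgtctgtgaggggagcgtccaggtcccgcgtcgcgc
Ube2c: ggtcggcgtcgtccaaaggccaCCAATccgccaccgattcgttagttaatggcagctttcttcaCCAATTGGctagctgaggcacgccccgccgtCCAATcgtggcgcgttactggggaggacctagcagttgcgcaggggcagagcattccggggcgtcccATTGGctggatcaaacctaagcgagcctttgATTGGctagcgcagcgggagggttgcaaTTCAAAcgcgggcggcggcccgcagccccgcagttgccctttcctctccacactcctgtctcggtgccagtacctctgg
Mki67: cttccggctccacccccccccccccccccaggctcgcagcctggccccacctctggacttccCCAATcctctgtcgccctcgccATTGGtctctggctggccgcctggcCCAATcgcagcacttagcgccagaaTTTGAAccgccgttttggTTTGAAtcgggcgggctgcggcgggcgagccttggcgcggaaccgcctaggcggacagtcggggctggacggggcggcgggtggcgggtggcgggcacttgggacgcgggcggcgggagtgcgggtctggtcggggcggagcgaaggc
Prc1: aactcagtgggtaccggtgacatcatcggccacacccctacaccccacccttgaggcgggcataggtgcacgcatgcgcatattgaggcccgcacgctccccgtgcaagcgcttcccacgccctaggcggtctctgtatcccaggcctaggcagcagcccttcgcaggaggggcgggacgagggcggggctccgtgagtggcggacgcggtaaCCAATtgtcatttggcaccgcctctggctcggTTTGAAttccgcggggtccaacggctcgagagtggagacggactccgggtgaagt
CCAAT matched 6 times in Top2a, 6 in Ube2c, 3 in Mki67 and 1 in Prc1, and TTTGAA matched 2, 1, 2 and 1 times. Of the 22 mitosis genes with a window, 19 (86.4%) held CCAAT, 14 (63.6%) held TTTGAA and 14 (63.6%) held both. Over all 16339 windows of the same length the shares were 38.7%, 15.6% and 6.4%. Of 19 DNA replication genes with a window, 12 held CCAAT, 3 held TTTGAA and 2 held both. A match describes these letters and was not tested as a binding site.

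Matrix genes followed the stromal markers. Of 18 collagen and basement membrane genes 17 rose and 0 fell, with a median log2 difference of 1.79. Several are also in the fibroblast list. Col3a1, the chain of fibrillar collagen III, stood at 46.3, 51.8 and 54.1 CPM against 200 to 223 CPM (median 218, log2 difference 2.02 ± 0.07, adjusted p = 2.8e-15), and Col4a2, a basement membrane chain, was higher by 2.65. Matrix proteases and their inhibitors split by gene, 6 higher and 5 lower of 18. Timp3 (log2 difference 2.05), Timp2 (0.53) and the gelatinase gene Mmp2 (3.03) rose. Mmp12, the macrophage elastase, fell from 233, 256 and 227 CPM to 133 to 162 CPM (median 146, log2 difference -0.75 ± 0.07, adjusted p = 1.7e-08), and Mmp8 fell by 0.88. Summed mesothelial and fibroblast markers moved with the higher members, and their part was not tested.

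Complement genes were higher for 13 of 16 members and lower for 0, with a median of 0.89. C3, the central component, stood at 79.9, 91.8 and 76 CPM against 181 to 230 CPM (median 214, log2 difference 1.29 ± 0.08, adjusted p = 4.1e-11). C4b, of the classical pathway, stood at 58.9, 64 and 65.3 CPM against 131 to 145 CPM (median 143, log2 difference 1.11 ± 0.05, adjusted p = 1.6e-13). The protease gene C1s1 (2.14) was higher as well, and none of these genes overlapped between the genotypes. Stromal cells make several of these components, the summed stromal markers moved the same way, and their part was not tested.

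Eicosanoid genes were higher for 11 of 19 members and lower for 1 (median 0.59). Ptgs2, the inducible cyclooxygenase, stood at 4.86, 5.39 and 6.19 CPM against 23.4 to 30.2 CPM (median 26.8, log2 difference 2.23 ± 0.11, adjusted p = 3.2e-13). Its constitutive counterpart Ptgs1 was higher by 1.46 and the prostacyclin synthase gene Ptgis by 1.89. Ephx1, an epoxide hydrolase, rose by 1.00. For this group too, the part of stromal cells, whose summed markers were higher in the same libraries, was not tested.

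Of 18 genes for clearance of apoptotic cells 10 were higher and 2 were lower (median 0.23). The receptor tyrosine kinase gene Axl stood at 22.2, 24.7 and 23.4 CPM against 53.7 to 59.9 CPM (median 55.0, log2 difference 1.2 ± 0.06, adjusted p = 2.3e-13). Its bridging ligands Gas6 (1.09) and Pros1 (1.27) rose with it, and so did Timd4. No dMye_PCN library overlapped FF_PCN for any of them. Upper-quartile scaling gave 10 higher and 0 lower in the clearance list. The summed stromal markers were higher in the same libraries, and their part in these rises was not tested. Among adhesion molecules 8 of 19 were higher and 4 were lower (median 0.03), with Vcam1 (1.44), Icam1 (0.93) and Itga6 (0.67) up and Itgb7 down by 0.40. For adhesion molecules the same scaling gave 9 higher and 1 lower. The part of stromal cells in the adhesion rises was not tested either.

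Antigen presentation genes were read for both MHC classes. Of 15 MHC class I genes 0 were called under PCN by edgeR, 3 had an unadjusted p under 0.05, 0 were called by DESeq2, and 2 were called higher with upper-quartile scaling. The list for MHC class II presentation moved in both directions, with 5 of 14 lower and 2 higher (median -0.12). Summed, it came to 5476 to 6022 CPM in FF_PCN and 6068 to 7524 CPM in dMye_PCN, higher in every deficient library. Most of that sum was the protease gene Ctss (5056 to 5563 CPM against 5661 to 7094 CPM), which was not called (log2 difference 0.18, adjusted p = 0.13). The higher members were the costimulatory ligand gene Cd80 (0.36) and the lysosomal thiol reductase gene Ifi30 (0.20), and these 3 genes were taken after their values were seen. The lower members were the transactivator, chain and invariant chain genes. Ciita, the transactivator of the class II genes, stood at 3.65, 2.26 and 3.35 CPM in FF_PCN and 0.994 to 1.86 CPM in dMye_PCN (median 1.43), a log2 difference of -1.15 ± 0.20 (adjusted p = 0.00019). H2-Ab1, the class II beta chain, stood at 41.9, 36.3 and 41.9 CPM against 26.6 to 30.8 CPM (median 29.4, log2 difference -0.50 ± 0.10, adjusted p = 0.00041), and H2-Aa, its alpha chain, fell by 0.45. The invariant chain gene Cd74 stood at 179, 149 and 157 CPM against 125 to 150 CPM, with overlap (log2 difference -0.32, adjusted p = 0.00023). B cells also carry class II molecules. Their 12 markers summed to 97.8 to 109 CPM in FF_PCN and 87.6 to 97.5 CPM in dMye_PCN, and their part in the lower members was not tested. Class II genes are near-identical to one another in places, so their estimated counts are less certain.

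Promoters of class II genes are read by CIITA through factors held on the DNA, among them NF-Y on the Y box. The window of H2-Aa (RefSeq, GRCm38.p6, chr17:34287774-34288073, minus strand, 250 bases before to 50 after the start) is shown with the Y box letters CTGATTGG in capitals.
H2-Aa: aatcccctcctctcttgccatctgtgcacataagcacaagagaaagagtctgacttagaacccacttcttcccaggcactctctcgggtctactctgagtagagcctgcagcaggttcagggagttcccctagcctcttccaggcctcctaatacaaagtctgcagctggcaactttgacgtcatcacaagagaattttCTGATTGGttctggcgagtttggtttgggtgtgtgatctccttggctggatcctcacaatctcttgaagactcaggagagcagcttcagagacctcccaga
CTGATTGG, searched on both strands, contains ATTGG and so always overlaps a CCAAT match. It was found in 3 of 7 class II genes with a window and in 840 of all 16339 windows (5.14%). Ciita, H2-Ab1 and Cd74, lower members named above, had no window, so the count does not cover them.

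Genes of cholesterol handling moved in both directions, and the members that fell included the efflux transporters. Of 19 cholesterol efflux and LXR target genes 6 were higher and 7 were lower (median 0.07). Abcg1, which loads cholesterol onto HDL, stood at 557, 622 and 562 CPM in FF_PCN and 346 to 408 CPM in dMye_PCN (median 357), a log2 difference of -0.72 ± 0.06 (adjusted p = 5.3e-09). Abca1, which loads lipid-poor apolipoprotein, stood at 85.1, 99 and 85.9 CPM against 50.1 to 75.4 CPM (median 64.5, log2 difference -0.55 ± 0.12, adjusted p = 0.0012). Mylip, the LXR target that degrades LDL receptor family proteins, stood at 35.6, 36.2 and 35.4 CPM against 22.4 to 25.9 CPM (median 23.9, log2 difference -0.63 ± 0.06, adjusted p = 2.7e-08). Each of these 3 genes was lower in every dMye_PCN library than in any FF_PCN library. Not all LXR targets fell, since the phospholipid transfer protein gene Pltp rose by 0.88 and the desaturase gene Scd2 by 1.86. The summed stromal markers were higher in the same libraries, and their part in the rises of Pltp and Scd2 was not tested. Nr1h3, which encodes LXR alpha, did not pass the test (37.9, 37.9 and 43.2 CPM against 36.8 to 47.6 CPM, log2 difference 0.07, adjusted p = 0.57, taken after its values were seen).

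Sterol synthesis genes, driven by SREBP2, were higher for 10 of 23 members and lower for 1 (median 0.22), and 14 were higher with upper-quartile scaling. Stard4, a sterol transfer protein gene, stood at 1.79, 2.1 and 2.77 CPM against 4.5 to 5.48 CPM (median 5.06, log2 difference 1.14 ± 0.14, adjusted p = 1.8e-06). Its lowest dMye_PCN library was above every FF_PCN library. Fatty acid synthesis genes were higher for 6 of 14 and lower for 1 (median 0.28), led by Scd2, Scd1 (1.47), Me1 (1.28) and Fads2 (2.16). The summed stromal markers were higher in the same libraries, and their part in these rises was not tested.

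Lipid uptake and storage leaned lower at its most expressed members, with 4 higher and 7 lower of 24 (median 0.04). Cd36, the scavenger receptor for oxidized lipoprotein, stood at 2875, 3019 and 3058 CPM in FF_PCN and 2116 to 2436 CPM in dMye_PCN (median 2288), a log2 difference of -0.44 ± 0.06 (adjusted p = 2.9e-06). Plin2, the coat protein of lipid droplets, stood at 2910, 2898 and 2915 CPM against 1894 to 2210 CPM (median 2034, log2 difference -0.56 ± 0.05, adjusted p = 5e-08). Hilpda, an inhibitor of droplet lipolysis, fell by 0.78, and the VLDL receptor gene Vldlr rose by 1.70. For all 4 genes the genotypes did not overlap. Stromal markers were higher in the same libraries, and their part in the rise of Vldlr was not tested. PPAR targets and fatty acid oxidation genes gave 1 higher and 4 lower of 18 (median -0.03), but 3 higher and 3 lower with upper-quartile scaling. Acadl, a long-chain acyl-CoA dehydrogenase, fell by 0.33, Cpt1a, the gate of mitochondrial fatty acid import, by 0.25 and Ppard by 0.34. The Pparg call (log2 difference -0.19) was lost without FF_PCN library 2 (adjusted p = 0.063) and with upper-quartile scaling (adjusted p = 0.091).

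**Figure D4:**
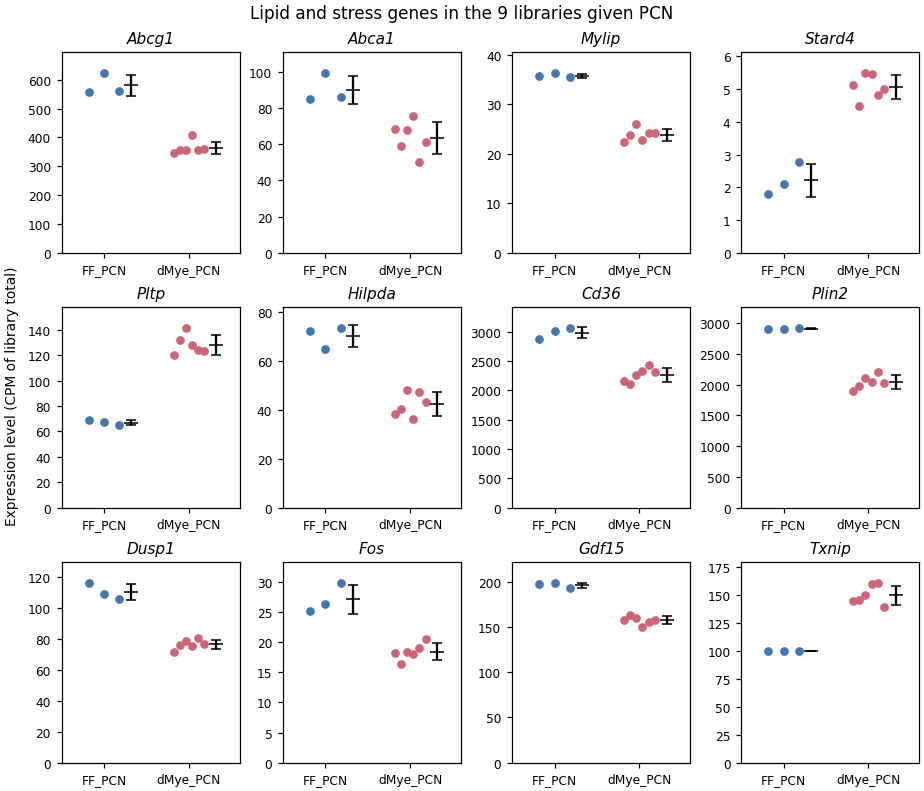
Expression level in CPM of the library total (vertical axes, each from 0) of 12 lipid and stress genes in the 3 FF_PCN libraries (blue) and 6 dMye_PCN libraries (red), with black bars for mean ± SD. Abcg1, Abca1, Mylip, Hilpda, Cd36, Plin2, Dusp1, Fos and Gdf15 are lower in every dMye_PCN library, and Stard4, Pltp and Txnip are higher in every one.

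A list that pools drug metabolism genes with PXR targets of liver was not lower as a group in the dMye_PCN libraries. Of 21 tested members 6 were higher and 3 were lower (median 0.06). These counts do not single out genes that PXR induces. Cyp3a11, the textbook PXR target of mouse liver, had 0 counts in FF_PCN and 1 count in dMye_PCN, so a fall could not have been seen. The multidrug transporter gene Abcb1a did not pass the test (8.32, 9.55 and 10.5 CPM against 9.79 to 13.4 CPM, log2 difference 0.18 ± 0.13, adjusted p = 0.33), and its close relative Abcb1b was higher by 0.47. Por, the reductase that supplies electrons to all microsomal P450 enzymes, stood at 755, 752 and 790 CPM against 550 to 611 CPM (median 598, log2 difference -0.42 ± 0.04, adjusted p = 5.5e-08). Cyp1b1 stood at 17.7, 21.3 and 17.8 CPM against 36.5 to 46.3 CPM (median 43.3, log2 difference 1.11 ± 0.09, adjusted p = 1.6e-09). Stromal markers rose in the same libraries, and their part in the higher members was not tested.

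Of 28 nuclear receptor genes 6 were higher and 6 were lower. Esr1, estrogen receptor alpha, stood at 1.79, 1.51 and 1.82 CPM against 4.55 to 7.3 CPM (median 5.51, log2 difference 1.70 ± 0.20, adjusted p = 6.7e-07). The retinoic acid receptor gene Rarb was higher by 2.33. Rxrb, a dimer partner of PXR, stood at 93.3, 93.8 and 93.1 CPM against 77 to 83.7 CPM (median 80.2, log2 difference -0.27 ± 0.05, adjusted p = 0.00022), and Nr2c2 fell by 0.39. Clock genes gave 3 higher and 3 lower of 17, with Dbp up by 1.08, Nr1d1 up by 0.58, Bhlhe41 down by 0.56 and Cry1 down by 0.51 on the log2 scale. Glutathione and NRF2 target genes were higher for 7 of 25 and lower for 4 (median 0.12). The cystine importer gene Slc7a11 stood at 105, 111 and 112 CPM against 59.5 to 80.4 CPM (median 68.6, log2 difference -0.73 ± 0.07, adjusted p = 9.4e-08) and heme oxygenase, Hmox1, fell by 0.36. Gpx3 (1.26) and Gstp1 (0.63) rose. The summed stromal markers were higher in the same libraries. Their part in these rises, and in those of Esr1 and Rarb, was not tested.

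Interferon-stimulated genes were higher for 8 of 27 members and lower for 0, with a median of 0.21. The antiviral synthetase gene Oas1a stood at 53.1, 49.3 and 52 CPM against 73.1 to 84.7 CPM (median 74.2, log2 difference 0.51 ± 0.07, adjusted p = 1.3e-05), and Oasl1 and the RNA sensor gene Ddx58 were higher by 0.81 and 0.43. The Oasl2 call (0.55) was lost without FF_PCN library 1 (adjusted p = 0.089). Immunity GTPase genes were higher for 8 of 15 and lower for 0 (median 0.51). Gbp2 stood at 6.53, 5.87 and 6.73 CPM against 10.1 to 11.8 CPM (median 11.2, log2 difference 0.76 ± 0.11, adjusted p = 2.7e-05), and Gbp7 (0.53) and Gbp9 (0.91) were higher too. Ifi47 (0.69) was not called without FF_PCN library 2 (adjusted p = 0.063).

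Inflammatory genes driven by NF-kB gave 8 higher and 3 lower of 25 (median 0.03). Besides Ptgs2, the monocyte chemokine gene Ccl2 stood at 5.56, 4.2 and 5.74 CPM against 8.16 to 10.9 CPM (median 9.58, log2 difference 0.83 ± 0.16, adjusted p = 0.00037). Tnfaip3, the ubiquitin-editing brake on the pathway, fell from 92.2, 101 and 96.2 CPM to 74 to 83.2 CPM (median 78.4, log2 difference -0.35 ± 0.05, adjusted p = 4.3e-05). Tnf did not pass the test, at 13.4, 14.7 and 15.4 CPM against 13.5 to 16.4 CPM (log2 difference -0.04 ± 0.08, adjusted p = 0.77), and Il1b, with 17 and 16 counts in the groups, was below the count filter. The chemokine receptor gene Ccr1 (-0.44) was lower, within a list of 14 with 2 higher and 3 lower. Its higher members were Ccl6 (0.70) and Cx3cl1 (2.53), and the latter moved to 3.87 without FF_PCN library 3. Pattern receptor genes gave 7 higher and 3 lower of 17, with Tlr2 up by 0.56, Tlr3 up by 1.09 and the C-type lectin gene Clec4n down by 0.55. TGF-beta and activin genes gave 8 higher and 3 lower of 25. Fstl1 (0.90), Tgfb3 (2.24) and Bmp2 (2.12) were among the higher and Tgif1 (-0.34) among the lower. Mesothelial and fibroblast markers were also higher in the dMye_PCN libraries, and their part in the rises named in this paragraph was not tested.

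Immediate-early and AP-1 genes leaned lower, 9 of 24 lower and 5 higher (median -0.02, and 8 lower and 6 higher with upper-quartile scaling). Fos, a subunit of AP-1, stood at 25.1, 26.3 and 29.7 CPM in FF_PCN and 16.3 to 20.5 CPM in dMye_PCN (median 18.3), a log2 difference of -0.60 ± 0.08 (adjusted p = 2.3e-06). Dusp1, the phosphatase that switches off stress kinases, stood at 116, 109 and 106 CPM against 71.7 to 80.8 CPM (median 76.5, log2 difference -0.58 ± 0.05, adjusted p = 7.2e-09). Atf3 fell by 0.41 and Egr2 by 0.52. Genes that glucocorticoids induce, a list that holds Dusp1, gave 4 higher and 4 lower of 18, with the metallothionein genes Mt1 and Mt2 up by 0.51 and 0.77 and Ddit4 by 0.63. Upper-quartile scaling gave 5 higher and 1 lower. Unfolded protein and integrated stress response genes gave 8 higher and 6 lower of 24 (9 and 3 with upper-quartile scaling). The chaperone gene Pdia4 was up by 0.40 and the serine synthesis gene Psat1 by 0.41. Heat shock genes gave 5 higher and 0 lower of 15, led by Hspb1 (1.77) and Cryab (1.47). Stromal markers were higher in the same libraries, and their part in the rises of heat shock genes was not tested. Hspa8, the constitutive chaperone, stood at 445, 451 and 437 CPM against 578 to 659 CPM (median 612, log2 difference 0.42 ± 0.05, adjusted p = 9.9e-07).

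Named genes of energy metabolism differed by small amounts. Glycolysis genes gave 1 higher and 5 lower of 18 (median -0.03, and 1 higher and 2 lower with upper-quartile scaling), with the hexokinase gene Hk3 down by 0.27 and the glucose transporter gene Slc2a1 down by 0.32. Aldoa (-0.19) and Pfkfb3 (-0.23) were not called with upper-quartile scaling (adjusted p = 0.078 and 0.062), and Pfkfb3 was not called without FF_PCN library 2 either (adjusted p = 0.19). Of 22 oxidative phosphorylation genes 1 was called, Atp5a1 (0.27). Lysosome genes gave 2 higher and 6 lower of 24 (median -0.05), but 4 higher and 3 lower with upper-quartile scaling. The proton pump genes Atp6v1a (-0.24) and Atp6v0d2 (-0.31) were lower. Purinergic genes gave 4 higher and 1 lower of 17. The UDP receptor gene P2ry6 stood at 2.29, 1.74 and 1.32 CPM against 3.36 to 5.48 CPM (median 4.99, log2 difference 1.33 ± 0.20, adjusted p = 3.2e-05), and the ATP receptor gene P2ry2 fell by 0.33. The Slc29a1 call (0.21) was lost without FF_PCN library 2 (adjusted p = 0.1).

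Most of the genotype difference seen with PCN was also present without it. Under DMSO, 2817 autosomal genes were called (21.8%), 1794 higher (13.9%) and 1023 lower (7.92%) in the deficient libraries, and the share higher went from 63.7% to 75.9% of calls with upper-quartile scaling. The PCN and DMSO comparisons share no library, but it is not stated if their cultures came from the same animals. Sex and stromal markers also differed between the genotypes under DMSO. The agreement therefore need not be an independent repeat. Called in both were 1891 genes, 53% of the PCN calls and 67.1% of the DMSO calls, and 1867 of these had the same direction. Of the PCN calls, 3222 (90.3%) had the same sign under DMSO whether called there or not, and across 12916 genes, which are not independent replicates, the log2 differences correlated with r = 0.722. All 12 mesothelial markers were higher under DMSO too (median 2.37), as were 25 of 26 mitosis genes (median 1.24). So were 16 of 18 collagen genes (median 1.73) and 12 of 16 complement genes (median 0.78). Counts of other lists differed. Under DMSO macrophage identity genes gave 3 higher and 2 lower (10 and 1 under PCN), and interferon-stimulated genes 2 and 1 (8 and 0). Glycolysis genes gave 0 and 0 (1 and 5), MHC class II genes 0 and 9 (2 and 5), and B cell markers 0 and 8 (0 and 3). Such counts do not test a difference between the conditions.

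The difference of the genotype differences, PCN minus DMSO, was called for 181 genes (1.4%), 93 positive and 88 negative. The count was 390 with DESeq2 and 59 without FF_PCN library 2. Leaving out FF_PCN library 1 or 3 gave 100 and 89, and leaving out dMye_PCN library 1 or 2 gave 116 and 120. Of the 181 genes, 144 were also called under PCN. Among these 48 were called under DMSO as well, 24 of them in the opposite direction. The other 96 were not called under DMSO, 40 of them higher and 56 lower in dMye_PCN.

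**Figure D5:**
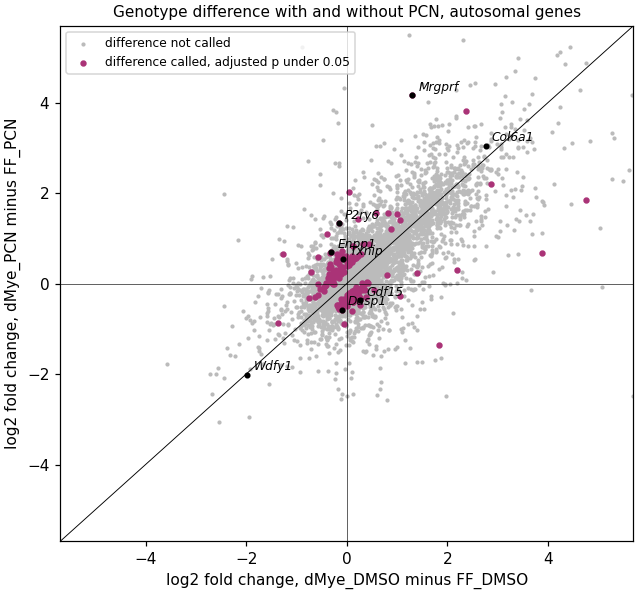
Log2 genotype difference under PCN (vertical axis) against that under DMSO (horizontal axis) for autosomal genes, with genes whose difference of differences was called in purple, named genes in black and the line of equality drawn. Most genes follow the line (r = 0.722), the 181 called genes lie off it, and 33 genes beyond 5.7 on either axis are not shown.

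Gdf15, a stress-induced cytokine of the TGF-beta family, reversed between the conditions. With PCN it stood at 197, 198 and 193 CPM in FF_PCN and 150 to 163 CPM in dMye_PCN (median 157), a log2 difference of -0.37 ± 0.05 (adjusted p = 3.3e-06). With DMSO it stood at 113 to 120 CPM in the floxed and 131 to 154 CPM in the deficient libraries (log2 difference 0.27, adjusted p = 0.00028). Neither pair of ranges overlapped, and the difference of the differences was -0.64 ± 0.07 (adjusted p = 5.2e-05). Ppp1r15a, the phosphatase subunit that restores translation after stress, did the same, with -0.27 under PCN, 0.25 under DMSO and a difference of -0.52 (adjusted p = 0.00044).

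Txnip, the thioredoxin-binding arrestin that limits glucose uptake, stood at 99.5, 99.9 and 99.4 CPM in FF_PCN and 139 to 160 CPM in dMye_PCN (median 148), a log2 difference of 0.54 ± 0.05 (adjusted p = 2.5e-08). Its DMSO levels of 180 to 191 CPM in the floxed and 172 to 182 CPM in the deficient libraries overlapped, and the difference of the differences was 0.61 ± 0.07 (adjusted p = 5.2e-05). Ly6e, an interferon-responsive surface protein gene (0.50 under PCN, -0.18 under DMSO, difference 0.68, adjusted p = 0.00013), the membrane contact gene Esyt1 (0.20, -0.28, difference 0.49, adjusted p = 0.00032) and the ectonucleotidase gene Enpp1 (0.69, -0.31, difference 1.00, adjusted p = 0.00057) crossed zero in the other direction from Gdf15. The small GTPase gene Rhov (-0.44, 0.01) and Dusp1 (-0.58, -0.09) were lower in dMye_PCN and were not called under DMSO (adjusted p = 0.86 and 0.19), with differences of -0.46 and -0.48 (adjusted p = 0.0014 for each). P2ry6 was not called under DMSO either (-0.16, adjusted p = 0.51), and its difference was 1.49 ± 0.26 (adjusted p = 0.0062).

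For the difference of the differences, list counts stand beside the 1.4% called over all autosomal genes. The lists given next held a larger share than that, and no set test was run. Of 18 PPAR target and fatty acid oxidation genes it was positive for 4 and negative for 0, among them Cpt1a (-0.25 under PCN and -0.56 under DMSO, difference 0.31, adjusted p = 0.03). Of 24 immediate-early genes it was positive for 0 and negative for 4, among them Atf3 (-0.32, adjusted p = 0.023) and Dusp1, and of 18 glucocorticoid-induced genes it was negative for 3. Cd74 fell less with PCN than with DMSO (-0.32 and -0.76, difference 0.44, adjusted p = 0.011). For Abcg1 (-0.72 and -0.62, difference -0.10, adjusted p = 0.7), Cd36 (-0.44 and -0.39, difference -0.05, adjusted p = 0.87) and Plin2 (-0.56 and -0.58, difference 0.02, adjusted p = 0.96) the PCN and DMSO values did not differ beyond their error.

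Called genes were spread over the genome. By autosome the share called under PCN ran from 22.4% on chromosome 17 to 33.4% on chromosome 18. Within 5 Mb of Nr1i2 on chromosome 16 it was 14 of 47 (29.8%) and within 5 Mb of Lyz2 on chromosome 10 it was 9 of 37 (24.3%).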

How the data were processed

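The authors deposited 1 table of expected counts, estimates of reads for each of 21831 gene symbols, and 51.2% of its values were not whole numbers. The submitters' processing notes name the build mm10. Which aligner, quantifier and annotation were used, and whether strand was, is not given in the sources used here, so overlapping and antisense genes could not be told apart. The labels' protocols give TRIzol extraction and Illumina library preparation. Another 26 symbols were date-like and 2 were repeated, and these are not named.

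Expected counts were rounded to whole numbers. Genes were kept by filterByExpr (13409, of which 12916 autosomal) and fitted with edgeR 4.0.16 (quasi-likelihood, robust, TMM scaling, R 4.3.3) over all 18 libraries in 4 groups without covariates, so that FF_PCN with 3 libraries shared the estimate of spread (biological coefficient of variation 9.69%). P-values were adjusted by Benjamini-Hochberg over all tested genes, and an adjusted p under 0.05 was called. Log2 differences are dMye minus FF from that fit, with their SE. Levels are CPM of the library total, and floors of 3 counts cover counting error only. Positions were matched by symbol to GENCODE M21 on GRCm38 for 13250 tested genes and by RefSeq name for 121, and promoter windows come from RefSeq (GRCm38.p6).

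Members and the 46 gene lists were chosen with earlier results of these data known, and lists are described by counts and medians beside those of all genes, with no set test. Genes were named by rule: the 15 largest differences each way among called genes with at least 1 CPM and no overlap between genotypes, from each list the called members with smallest p (at most 4), 8 genes with the smallest p for the difference of the differences, a fixed set, and the 5 genes most like the one with the smallest p. Replicate libraries differed beyond counting noise (chi-square per gene of 3.83 to 31.8), so none were merged. Alternatives were RLE and upper-quartile scaling, 2 other filters (none, and at least 1 CPM in 6 libraries), DESeq2 1.42.0, limma-voom (limma 3.58.1), a test against a 1.2-fold change, a fit of the 9 PCN libraries, a fit of autosomal genes alone, and leaving out each library. Some genes that the rule names are not reported here.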

Additional observations from a re-analysis of the deposited data

Results flagged for a closer look

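In dMye_PCN, 7 of 183 named genes had a library far from the others of its group, a gap that chance gives in about 1 in 20 groups. Library 4 was high for Abcg1 (408 CPM) and library 3 for Cd4 (0.518 CPM). Library 5 was high for Lum (5.35 CPM) and Oas1a (84.7 CPM) and low for Por (550 CPM). Library 6 was low for Fstl1 (97.4 CPM) and Mmp2 (6.11 CPM).

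For 26 named genes the genotype difference under PCN departed from that under DMSO by edgeR's test of the difference itself, given here as the log2 difference PCN minus DMSO. Smallest in adjusted p were Gdf15 (-0.64, adjusted p = 5.2e-05), Txnip (0.61, 5.2e-05), Ly6e (0.68, 0.00013), Esyt1 (0.49, 0.00032), Ppp1r15a (-0.52, 0.00044) and Enpp1 (1.00, 0.00057). Positive departures were also found for Abcb1b (0.37, adjusted p = 0.044), Axl (0.32, 0.037), Cd74 (0.44, 0.011), Clec10a (0.75, 0.021), Cpt1a (0.31, 0.03) and Hspa8 (0.40, 0.0056). The same held for Mmp8 (0.48, adjusted p = 0.047), Mpeg1 (0.32, 0.0062), Mrgprf (2.86, 0.037), P2ry6 (1.49, 0.0062), Psat1 (0.37, 0.025) and Thbs1 (0.55, 0.042). Slit2, with 0 counts in FF_PCN, gave a fitted 7.04 (adjusted p = 0.0038), a size that depends on the prior count and is no bound. Mrgprf was on average below the floor of 3 counts in FF_PCN, so its size rests on few reads as well. Negative departures were found for Atf3 (-0.32, adjusted p = 0.023), Clec4e (-0.43, 0.033), Dusp1 (-0.48, 0.0014), Hk3 (-0.29, 0.0064), P2ry2 (-0.34, 0.039), Rhov (-0.46, 0.0014) and Rxrb (-0.31, 0.026).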

How the results depend on the processing

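The 3 counts of called genes stayed within 1.5 times their reported values under most alternatives, and the cause of the exceptions was not tested. The difference of the differences was the least stable. Without FF_PCN library 1, 2 or 3, only 52.5%, 30.9% and 43.1% of its calls were kept. Whether the single genes named for that difference kept their calls is not given here. In the test against a 1.2-fold change the counts were 1447 under PCN, 1279 under DMSO and 8 for the difference of the differences, a test that asks for more than a nonzero change. With DESeq2 the difference count was 390. Leaving out 1 PCN library gave 2525 to 3737 under PCN and 59 to 198 for the difference, for which no DMSO library was left out. Leaving out 1 DMSO library gave 1975 to 3196 under DMSO. Leaving out 1 PCN library gave a mitochondrial share difference of 0.0775 to 0.207 percentage points. The log2 difference of Tnf, not called in any setting, changed sign to 0.02 with upper-quartile scaling, and ran from -0.10 without FF_PCN library 1 to 0.00 (just above zero) without FF_PCN library 3. Of 192 called named genes, 142 were called in each of the 18 alternatives that tested them and 18 lost the call without some library. Low counts limit the genes under 1 CPM in either group, whose calls rest on few reads. No paired analysis was possible because the labels carry no replicate numbers.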
